A study of Mus musculus with 21 samples.

Results

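Oocytes of aged mice were compared with oocytes of young mice by RNA sequencing. The members are the 5 oocyte libraries of untreated animals, 3 labelled Young and 2 labelled Aged, of 21 libraries in the series. They were chosen by their labels alone, and no measured value entered the choice. Young animals were female ICR mice of 6 to 8 weeks and Aged animals were female ICR mice of 18 months, both wild type and without any transplant. The other 7 oocyte libraries came from mice of the same old age that received human umbilical cord mesenchymal stem cells under the ovarian capsule (Aged + Unsorted, Aged + LRP1high and Aged + LRP1low), and the remaining 9 libraries came from granulosa cells. Oocytes were described as metaphase II oocytes, were released from dissected ovaries and were stripped of their zona pellucida with pronase. How many oocytes or animals went into 1 library is not given in the sources used here, nor whether the Aged animals had sham surgery, so the spread between libraries of a group may be partly technical. Values are FPKM, which scales fragments by transcript length and by the total of the library, and a change is the Aged mean minus the Young mean of log2(FPKM + 1).

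A fully grown oocyte is transcriptionally almost silent. It matures and starts embryonic development with RNA that it stored while growing, and proteins that bind, translate and remove this maternal RNA are therefore abundant in it. Mouse oocytes also hold many mitochondria, and with maternal age they lose cohesion between chromosomes and segregate them less accurately.

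The oocyte label was checked first against 10 genes that oocytes use. These are the zona pellucida genes Zp1, Zp2 and Zp3, the secreted growth factors Gdf9 and Bmp15, the oocyte linker histone H1foo, and Dppa3, Ooep, Nlrp5 and Oosp1. Their median FPKM was 0.892, 84.9 and 595 in Young 1, 2 and 3 and 11.6 and 716 in Aged 1 and 2. In Young 1 the highest of the 10 was 2.18 and Zp2 was listed at 0, and in Aged 1 they lay between 1.74 and 49.5. The libraries labelled Young 1 and Aged 1 thus went against their label, each in a different group, while Young 2, Young 3 and Aged 2 were rich in oocyte RNA. Fewer oocytes, less RNA per oocyte and other reasons cannot be told apart in such libraries, and none was tested. The main counts and the list medians are therefore given with and without Young 1 and Aged 1.

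In these same libraries a repeat took a large share of the signal. Gm10800, annotated as protein-coding on chromosome 2, held 78.1%, 0.998% and 0.000689% of all FPKM in Young 1, 2 and 3 and 42.6% and 17.4% in Aged 1 and 2. The first 240 bases of its transcript of 660 bases are shown because this gene held the largest share of the signal (GENCODE vM21, GRCm38, chr2:98666547-98667301, minus strand). The capitals mark TTCAGTTTTC, the word of 10 bases that occurs most often in it, 7 times in the whole transcript and 3 times here.
Gm10800: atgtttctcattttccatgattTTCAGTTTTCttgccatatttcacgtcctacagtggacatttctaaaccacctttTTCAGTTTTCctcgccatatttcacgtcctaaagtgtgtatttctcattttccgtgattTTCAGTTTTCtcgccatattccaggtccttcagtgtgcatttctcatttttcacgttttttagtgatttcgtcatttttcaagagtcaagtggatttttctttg
Genes of this family are known to resemble the major satellite, the repeat of mouse pericentromeric heterochromatin. Windows of 50 bases shared with transcripts of 12 other genes made up 30.1% of the transcript.

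Depth also differed between the groups. It was 1.35, 3.02 and 3.40 aligned gigabases in Young 1, 2 and 3 and 0.578 and 0.791 in Aged 1 and 2, so both Aged libraries were shallower than every Young library. Genes with an FPKM of at least 1 numbered 19690, 3135 and 11452 in Young and 27970 and 11047 in Aged. Of the 28004 genes tested, 22155 were listed at 0 in Young 2 and 2410 in Young 1. Across 3403 genes that averaged an FPKM of 10 or more, Spearman's rho was 0.53 between Young 3 and Aged 2, 0.37 between Young 2 and Young 3 and 0.29 between Young 1 and Aged 1, and it was 0.01 between the 2 Aged libraries. These correlations are a description across genes, which are not independent replicates.

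**Figure D1:**
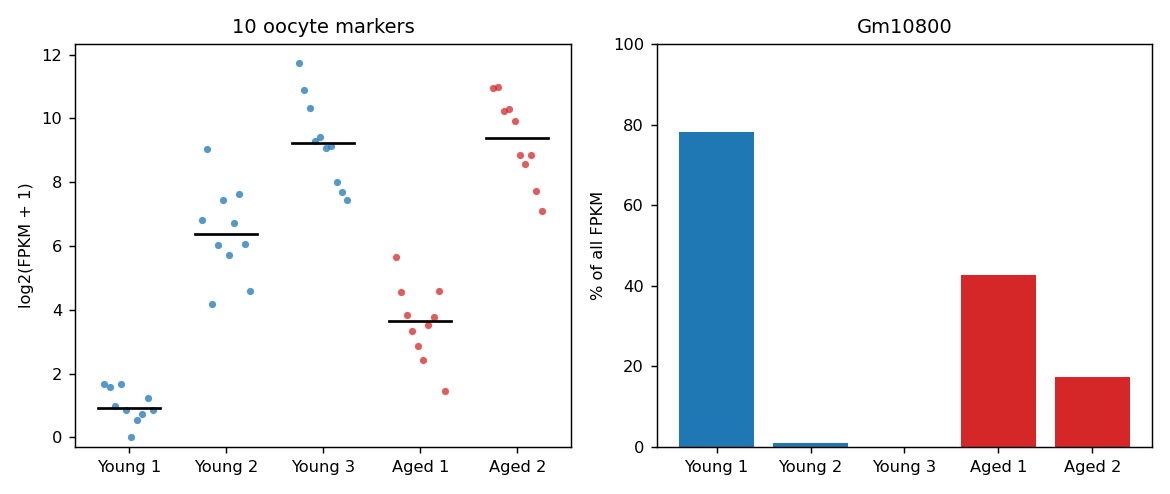
Left, log2(FPKM + 1) of the 10 oocyte markers in each library, with 1 point per gene and the median as a black line. Right, share of all FPKM held by Gm10800 in each library. The markers are low in Young 1 (median FPKM 0.892) and Aged 1 (11.6), where Gm10800 holds 78.1% and 42.6%.

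In the comparison of all 5 libraries, 27 genes were higher in Aged and 0 were lower at an adjusted p under 0.05 and a fold over 1.5. That is 0.0964% and 0% of the 28004 genes tested with limma. At an unadjusted p under 0.05 and the same fold, 2361 genes (8.43%) were higher and 60 (0.214%) lower. The 2 Aged libraries were both above all 3 Young libraries for 3084 genes (11.0%) and both below them for 181 genes (0.646%). Taken over every gene tested, the median log2 change was 0.94, so a list of genes has to be read against that shift and not against 0. Under quantile normalization, which moved the median to -0.01, 6 genes were higher (0.0214%) and 0 lower (0%), with 1262 higher and 426 lower at an unadjusted p.

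The 27 genes were mostly short and mostly not protein-coding. Of these 27, 13 were pseudogenes, against 15.8% of the genes tested, and 4 were protein-coding, against 59.9% of the genes tested. The longest transcript was under 1000 bases in 20 of the 27, against 29.1% of the genes tested, and 17 had a single exon, against 26.7%. FPKM ranged from 9.62 to 65.3 in the Aged libraries and reached at most 1.45 in a Young library. None of the 27 was above 0 in Young 2, 3 were above 0 in Young 3 and 15 in Young 1, and 11 were at 0 in all 3 Young libraries. Changes lay between 3.57 and 5.14 on the log2 scale, with standard errors of 0.54 to 0.77, and all 27 had the same adjusted p of 0.0461, the smallest in the comparison. The median deposited coverage of the 27 was 8.77 in Aged 1 and 13.7 in Aged 2, and the highest in a Young library was 2.29. Genes entered the test on their mean FPKM over all 12 oocyte libraries. A gene near 0 in Young could thus enter only through high values in other groups, Aged among them. The low Young values of the 27 are therefore not independent of the filter.

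A small nucleolar RNA and a miRNA precursor among the 27 are shown first, because they are whole genes short enough to print. Both sequences are from GENCODE vM21 on GRCm38. Gm23015 is a small nucleolar RNA, of the class that guides modification of other RNAs, at chr5:57128645-57128772 on the minus strand. Its capitals mark ACA near the 3′ end, the letters of the box that gives H/ACA small nucleolar RNAs their name. The same letters stood within the last 8 bases in 706 of 1507 small nucleolar RNA transcripts (46.8%), read on the transcript's own strand. Gm22619 is annotated as a miRNA precursor at chr4:93745888-93745997 on the minus strand.
Gm23015: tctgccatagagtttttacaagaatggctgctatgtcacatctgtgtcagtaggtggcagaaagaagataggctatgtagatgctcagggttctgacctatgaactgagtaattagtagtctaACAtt
Gm22619: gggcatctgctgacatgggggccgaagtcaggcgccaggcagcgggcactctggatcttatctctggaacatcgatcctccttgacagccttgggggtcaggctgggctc
Gm23015 had an FPKM of 0.701, 0 and 0 in Young 1, 2 and 3 and 24.1 and 65.3 in Aged 1 and 2. Gm22619 was at 0 in all 3 Young libraries and at 37.4 and 11.7 in Aged. In neither did the groups overlap. No window of 50 bases of Gm23015 occurred in a transcript of another gene. Every such window of Gm22619 did, shared with 48 other genes, so reads could not be assigned to it with certainty.

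The 4 protein-coding genes of the 27 lay on 4 chromosomes. Clstn3 (chromosome 6, 124430581 to 124464794) encodes calsyntenin 3, a membrane protein of the cadherin superfamily. Its FPKM was 1.45, 0 and 0 in Young 1, 2 and 3 and 21.9 and 29.5 in Aged 1 and 2, a change of 4.30 ± 0.65 (SE). Cd37 (chromosome 7, 45233632 to 45239115) encodes a tetraspanin best known from lymphocytes, with 1.11, 0 and 0 in Young and 19.996 and 20.7 in Aged. Slc25a12 (chromosome 2, 71271063 to 71367749) encodes the mitochondrial carrier that exchanges aspartate for glutamate. Its FPKM was 1.01, 0 and 1.16 in Young and 19.3 and 34.9 in Aged. Pea15a (chromosome 1, 172196728 to 172206804) encodes a small death effector domain protein that binds ERK, with 1.04, 0 and 0 in Young and 15.6 and 22.2 in Aged. In each of the 4 genes the lowest Aged library was over every Young library. With quantile normalization, 5 of the 27 were called again and none of these 4 genes was among them, although their changes stayed at 3.09 to 3.81.

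The other genes of the 27 were noncoding or immune receptor segments. Gm38087, an unclassified transcript on chromosome 11, had the largest change, 5.14 ± 0.77 (SE), from 0 in all 3 Young libraries to 26.7 and 44.1 in Aged. Ighv8-2 and Ighv6-3, variable segments of the immunoglobulin heavy chain on chromosome 12, were also at 0 in Young, with 27 and 29.9 in Aged for the first and 19.7 and 25.2 for the second. Defb44-ps, a defensin pseudogene on chromosome 1, went from 0 in Young to 14.0 and 55.3 in Aged. The remaining 12 pseudogenes were processed copies, with Gm37713 and Gm11439 showing the largest changes of them, 4.77 and 4.55. In Gm13153, another of them, 83.0% of the windows of 50 bases were shared with 10 other genes. Of all 27 genes, 17 shared no such window with another gene and 3 shared at least 50% of them. In 26 of the 27 both Aged libraries were also above each of the 7 oocyte libraries of transplanted aged mice. The fit took its spread from all oocyte libraries, so genes with little spread in the transplanted groups were called more easily. This count is therefore not independent of the choice of the 27, and its share over all genes was not counted. In each of the 3 granulosa cell libraries of untreated mice, 2 of the 27 reached an FPKM of 1. Of all 55335 identifiers, 12128 did so in granulosa Young 1 and 2734 and 2089 in granulosa Aged 1 and 2.

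**Figure D2:**
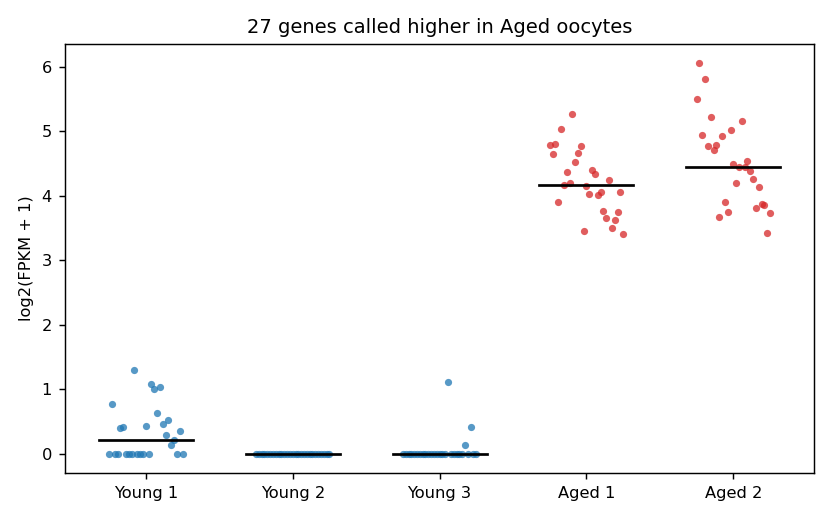
log2(FPKM + 1) of the 27 genes called higher in Aged oocytes, by library, with 1 point per gene and the median as a black line. All points of both Aged libraries lie above all Young points (at least 9.62 against at most 1.45 FPKM).

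Without Young 1 and Aged 1, the comparison set Aged 2 alone against Young 2 and Young 3. The lone Aged library was taken to vary like the other oocyte groups. All 7 transplanted libraries stayed in the fit and in its filter. Of these, Aged + LRP1low 1 and 2 were also poor in oocyte RNA, with a median marker FPKM of 5.02 and 7.77. Of 22380 genes tested, 1805 (8.07%) were then higher and 31 (0.139%) lower in Aged. With quantile normalization on top, 340 (1.52%) were higher and 12 (0.0536%) lower. The 27 genes of the full comparison also had changes above 0 there, which was fixed in advance because their groups do not overlap. Of the 1805, 1295 were listed at 0 in both Young libraries and 26 reached an FPKM of 100 in Aged 2. The median log2 change over every gene was then 0.

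The 2970 protein-coding genes that averaged an FPKM of 10 or more over Young and Aged were then ranked. In 185 of them both Aged libraries lay above every Young library, and in 18 they lay below. The first is a smaller share than the 11.0% of all genes tested, and the second is close to their 0.646%. Of the 10 higher genes with the smallest p, Clstn3 and Slc25a12 passed the adjusted test and the other 8 did not (adjusted p from 0.0647 to 0.115). P3h3, a collagen prolyl hydroxylase, had an FPKM of 3.91, 0 and 0 in Young and 21.4 and 42.4 in Aged. Cyren, an inhibitor of DNA end joining, had 3.98, 0 and 0.589 in Young and 31.2 and 26.5 in Aged. Rrp9, a protein of the small subunit processome in the nucleolus, had 2.40, 0 and 2.04 in Young and 11.8 and 37.4 in Aged. In these 3 genes Young 2 was at 0 and the Aged values stood apart from it and from both other Young libraries. Zfp956, a zinc finger gene, was above 0 in all 5 libraries, at 2.44, 1.59 and 2.90 in Young and 46.0 and 26.7 in Aged. Syngr2, a synaptogyrin of vesicle membranes, had 2.29, 0 and 2.15 in Young and 19.5 and 28.2 in Aged. Hist1h2ah, a replication-dependent histone gene on chromosome 13, had 4.07, 0 and 2.66 in Young and 24.7 and 19.5 in Aged. Gm20521 was at 0 in Young and at 4.84 and 81.7 in Aged. Gm10719, a gene of the repeat family of Gm10800, had 0, 15.9 and 0.0361 in Young and 857 and 494 in Aged, and it reached 1602 in a transplanted library. Without Young 1 and Aged 1, P3h3, Cyren, Gm20521 and Rrp9 passed the adjusted test with Clstn3 and Slc25a12 (adjusted p from 0.00100 to 0.0309).

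None of the 10 lower genes with the smallest p passed the adjusted test in the full comparison (adjusted p from 0.119 to 0.515). They included regulators of transcription and chromatin. Cbx3 encodes heterochromatin protein 1 gamma, which binds methylated histone H3. Its FPKM was 18.0, 1309 and 316 in Young 1, 2 and 3 and 9.74 and 12.9 in Aged 1 and 2, a change of -4.03 ± 1.52 (SE, adjusted p = 0.396). The Aged libraries were close to each other, and among Young the oocyte-poor library was the nearest to them. Ccnc, the cyclin of the Mediator kinase module, had 1.12, 39.4 and 56.2 in Young and 0 and 0 in Aged. Nr2f2, a nuclear receptor, had 19.2, 167 and 13.9 in Young and 9.52 and 0.527 in Aged. Nfia, a nuclear factor I gene, had 3.30, 86.5 and 18.5 in Young and 1.80 and 0.793 in Aged. Ss18l2 had 9.76, 100.4 and 113 in Young against 6.04 and 6.35 in Aged, and Zfp367, a zinc finger gene, had 5.41, 259 and 70.9 against 3.37 and 0.

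The other lower genes had roles outside the nucleus. Ppp1r14b, an inhibitor of protein phosphatase 1, had 6.65, 202 and 16.6 in Young and 0 in both Aged libraries. Smim10l1 had the smallest p of the lower genes and encodes a small integral membrane protein, with 20.4, 227 and 17.3 in Young and 0.741 and 2.53 in Aged. Ggact, an enzyme that breaks the crosslink between glutamyl and lysyl residues, had 3.77, 255 and 59.2 in Young and 3.36 and 0 in Aged. Inhba, the activin beta A subunit that granulosa cells secrete, had 0.470, 50.5 and 2.86 in Young and 0 in both Aged libraries. Of these 10 genes, Ggact alone passed the adjusted test without Young 1 and Aged 1, with a change of -6.96 (adjusted p = 0.0191). Changes of the other 9 lay between -7.09 and -3.82 there. Their sign was fixed in advance, because genes without overlap between the groups had been chosen. In the Young granulosa cell library these 10 genes had an FPKM from 15.2 (Ppp1r14b) to 1134 (Cbx3). Inhba, Ss18l2, Nfia and Smim10l1 were at 450, 338, 325 and 230 there. In the Aged granulosa cell libraries the 10 genes reached at most 1.80. The part of granulosa cell RNA in the oocyte values was not tested.

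**Figure D3:**
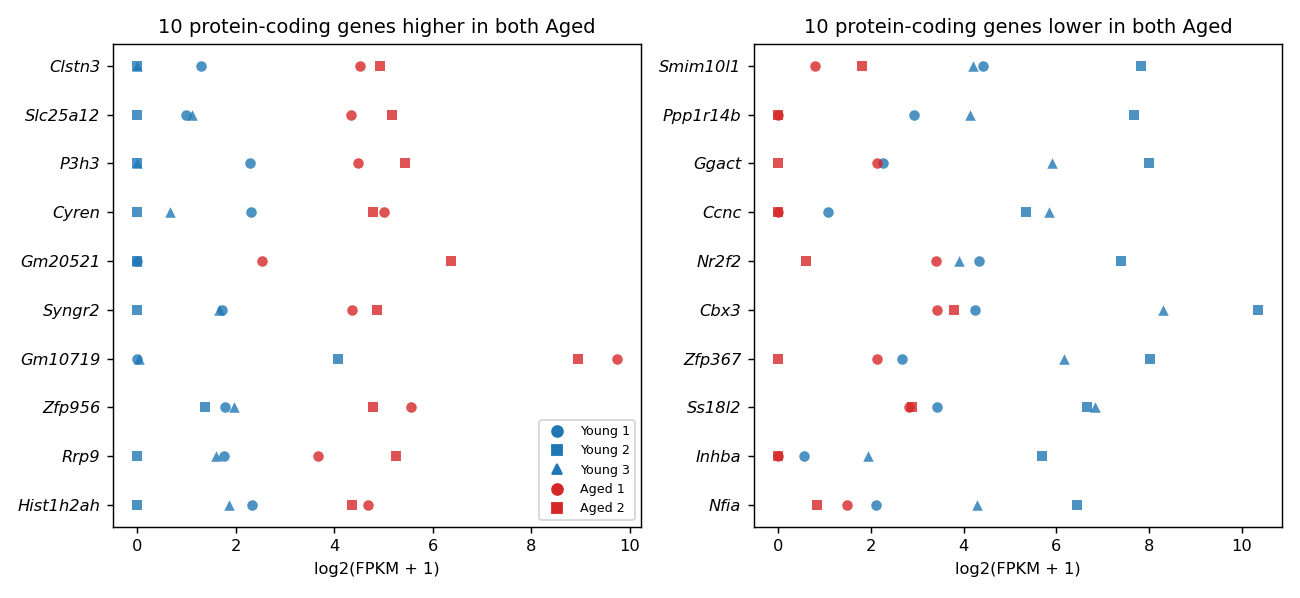
log2(FPKM + 1) in each library (blue, Young; red, Aged) of the 10 protein-coding genes with the smallest p among those higher (left) or lower (right) in both Aged libraries. The Aged and Young points do not overlap in any row, by construction, and Young 2 is at 0 in 8 of the 10 rows on the left.

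The comparison of Aged 2 with Young 2 and Young 3 also gave higher and lower protein-coding genes, with the transplanted libraries still in the fit. The genes named from it here were chosen after their values were seen, by the size of the change or the level. Aged 1 was poor in oocyte RNA, so a low value in it is not independent evidence of a change with age. Oocyte-poor Young 1 was low as well, for example at 1.80 in Supt16. Of all 31 lower genes, 13 had an FPKM of at least 100 in both Young libraries, 14 were listed at 0 in Aged 2, and in 29 Aged 1 was also below both Young libraries. Supt16, a subunit of the histone chaperone FACT, had 229 and 274 in Young 2 and 3 but 0 in Aged 2, with 8.39 in Aged 1, a change of -7.97 ± 0.66 (SE, adjusted p = 0.00140). Slc39a1, a zinc importer, fell from 92.6 and 136 in Young to 4.29 in Aged 2. With quantile normalization, changes of the lower protein-coding genes all stayed below 0, between -7.04 and -2.64, and most of them were no longer called. Pdcd4, an inhibitor of translation initiation, fell from 3201 and 1087 in Young to 163. Pan3, a subunit of a poly(A) nuclease, fell from 1724 and 623 to 128. Rbm45, an RNA-binding protein, fell from 544 and 75.7 to 0, and Rbm15, which brings the N6-methyladenosine writer to RNA, fell from 537 and 159 to 17.5. Trim71, a translational repressor of the let-7 pathway, fell from 12.5 and 18.5 to 0.

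Further examples of the lower protein-coding genes follow. Sh3rf1, a scaffold of the JNK pathway, fell from 1045 and 434 in Young 2 and 3 to 17.9 in Aged 2. Ptges3, the co-chaperone p23 of HSP90, fell from 1246 and 1215 to 208. Mcmbp, which binds the replicative helicase, fell from 1183 and 480 to 94.5. Adam10, a membrane protease, fell from 372 and 277 to 34.8, and Ncoa3, a coactivator of nuclear receptors, from 344 and 398 to 57.4. In these 5 genes Young 1, the oocyte-poor Young library, lay between 0.652 and 5.78, below every value in the oocyte-rich libraries. None of the 5 was called in the comparison of all 5 libraries.

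Of the protein-coding genes higher in Aged 2, mt-Nd4l and mt-Nd3 of the mitochondrial genome had the largest changes, 6.94 and 6.46. S100a2 was at 0 in both Young 2 and Young 3 and at 77.9 in Aged 2, Plxnd1, a semaphorin receptor, at 0 and 0.105 and at 44.0, and Gpnmb, a transmembrane glycoprotein of macrophages and melanocytes, at 0 and 0.444 and at 35.3. Kpna4, an importin of nuclear transport, was at 0 and 0.666 and at 45.2. Hoxa5, a homeobox gene, was at 0 and 0.00971 and at 28.7 in Aged 2, against 12.5 in Aged 1 and 5.33 in Young 1.

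Among all lists, the rRNAs and tRNAs of the mitochondrial genome had the largest median change. This genome encodes 13 respiratory chain proteins and the rRNAs and tRNAs that translate them. Its share of all FPKM was 2.80%, 0.979% and 2.12% in Young 1, 2 and 3 and 4.13% and 16% in Aged 1 and 2. The 13 mRNAs had a median change of 1.92 and the 24 rRNAs and tRNAs one of 4.80, against 0.94 for all genes. All 37 changes were above 0 and 25 of the 37 passed an unadjusted p of 0.05, 5 mRNAs and 20 tRNAs, but none passed the adjusted test. The medians were 2.16 and 4.31 with quantile normalization and 3.52 and 8.05 without Young 1 and Aged 1. There 6 of the 13 mRNAs and 11 of the 24 other RNAs were called higher, against 8.07% of all genes.

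Aged 2 was the highest library for 12 of the 13 mRNAs, with mt-Atp6 as the exception (1748 in Young 3 and 1652 in Aged 2), and for all 24 rRNAs and tRNAs. The large rRNA, mt-Rnr2, had an FPKM of 905, 430 and 752 in Young and 712 and 4101 in Aged. The small rRNA, mt-Rnr1, had 894, 440 and 550 in Young and 692 and 3463 in Aged. In both, Aged 1 lay within the Young range. The mRNAs mt-Nd1 and mt-Nd2, for subunits of complex I, had 926, 39.9 and 358 and 926, 406 and 180 in Young, and 823 and 3020 and 726 and 2999 in Aged. The mRNA mt-Cytb, for the complex III subunit, had 909, 62.2 and 1958 in Young and 834 and 2597 in Aged. Among the tRNAs, mt-Tw, the tRNA for tryptophan, had 922, 18.5 and 2.97 in Young and 733 and 3157 in Aged. Oocyte-poor Young 1 and Aged 1 were alike in it, and the oocyte-rich libraries stood on either side of them. The median of the 24 rRNAs and tRNAs was 885, 22.1 and 1.83 in Young and 635 and 2212 in Aged.

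The groups did not overlap for 2 of the 37 RNAs. Both were higher in Aged, a smaller share than the 11.0% of all genes. One was mt-Tr, the tRNA for arginine, which was chosen after its values were seen and is shown whole. It lies at chrM:9808-9875 on the plus strand (GENCODE vM21, GRCm38), and its capitals mark the only TCG in it, the letters of its anticodon.
mt-Tr: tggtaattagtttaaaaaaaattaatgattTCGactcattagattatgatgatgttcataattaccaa
Its FPKM was 95.6, 1.10 and 0.916 in Young and 292 and 2198 in Aged, a change of 6.78 ± 1.52 (SE, adjusted p = 0.0885). None of its windows of 50 bases occurred in another gene's transcripts. The other was mt-Nd3, with 185, 7.52 and 22.2 in Young and 261 and 1239 in Aged.

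**Figure D4:**
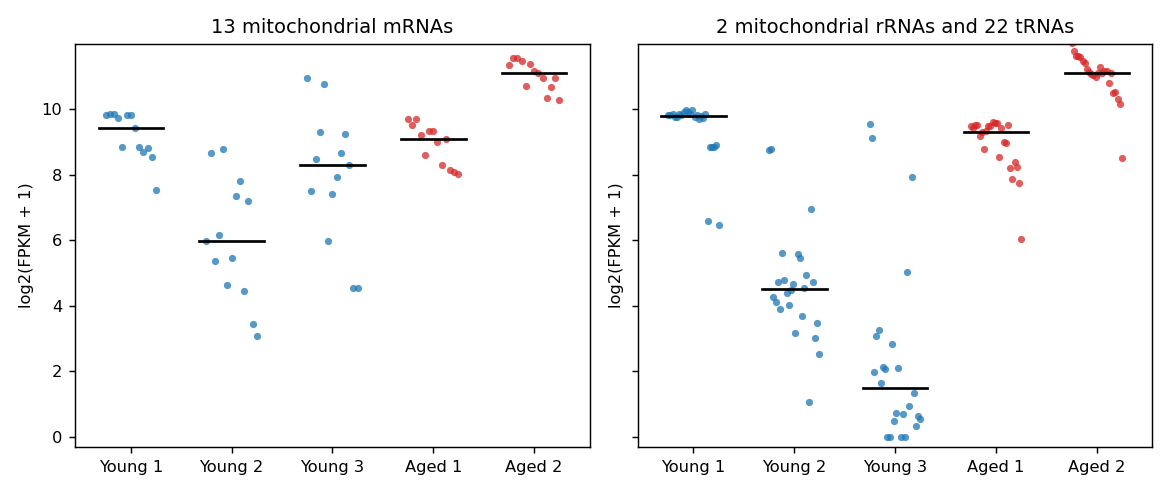
log2(FPKM + 1) of the 13 mRNAs (left) and the 24 rRNAs and tRNAs (right) of the mitochondrial genome, by library, with the median as a black line. Aged 2 is highest in both panels (median FPKM 2189 and 2212), and the median of the right panel is lowest in Young 3 (1.83).

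Nuclear genes of the respiratory chain had no such pattern in all 5 libraries. Their median change over 82 genes was 0.78, under that of all genes, and it was -0.39 with quantile normalization and 2.27 without Young 1 and Aged 1. None was called and 2 had an unadjusted p under 0.05, both higher. Ndufb9, a complex I subunit, was one of them, with 1.67, 0.490 and 19.1 in Young and 44.0 and 75.2 in Aged. Cox7c, a complex IV subunit and the most abundant of the list, had 0.739, 6.58 and 428 in Young and 11.6 and 327 in Aged, so Young 3 and Aged 2 were alike. Uqcrh of complex III behaved in the same way, with 260 in Young 3 and 259 in Aged 2, and Ndufc2 of complex I had 88.1 and 199 there. Cytosolic ribosomal proteins had a median change of 1.19 over 83 genes with 0 called, -0.01 with quantile normalization and 2.07 without Young 1 and Aged 1, where the median over all genes was 0. Rpl35, Rpl5 and Rps29 were their most abundant members, with 284, 225 and 92.7 in Young 2, 260, 423 and 75.7 in Young 3 and 466, 275 and 618 in Aged 2.

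Genes of the oocyte programme did not separate the groups. The 10 markers had a median change of 0.78, and of 1.27 without Young 1 and Aged 1, none had an unadjusted p under 0.05, and every one overlapped between Young and Aged. H1foo had 113 and 3437 in Young 2 and 3 and 1962 in Aged 2, Dppa3 had 530 and 1913 against 2026, and Gdf9 had 65.1 and 626 against 1245. In Aged 1 these 3 were at 49.5, 22.6 and 9.04, and in Young 1 at 2.18, 1.98 and 2.17. For the subcortical maternal complex, which the embryo needs for its first divisions, and other maternal effect genes the median change was 0.76 over 17 genes, and 0.70 without Young 1 and Aged 1. Zbed3 had 411 and 1717 in Young 2 and 3 and 1301 in Aged 2, Nlrp14 had 249 and 988 against 685, and Tcl1 had 25.1 and 750 against 636. One of the 17, the histone chaperone gene Npm3, was lower in both Aged libraries, with 4.42, 6.86 and 7.03 in Young and 0 in both Aged libraries, a change of -2.81 that passed limma's unadjusted but not its adjusted test (p of 0.00244 and 0.125).

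Genes that store, translate or remove maternal mRNA had a median change of 0.33 over 18 genes, with 1 of them higher at an unadjusted p, and one of 0.61 without Young 1 and Aged 1. The most abundant protein-coding gene of Young outside the repeat family was Insig1, a regulator of sterol synthesis, with 43.5, 46186 and 5643 in Young and 338 and 966 in Aged. Paip1, which binds the poly(A)-binding protein, was among the 5 most abundant protein-coding genes of Young, with 38.3, 27238 and 6789 in Young and 484 and 1603 in Aged. Btg4, the adaptor of maternal mRNA decay, had 3.94, 3097 and 913 in Young and 65.5 and 834 in Aged, and Lsm14b, of cytoplasmic RNA granules, had 9.71, 1939 and 1226 in Young and 16.9 and 402 in Aged. In these 3 genes Young 2 was the highest and Aged 2 was under both oocyte-rich Young libraries. Their changes from Young 2 and 3 to Aged 2 were -3.08, -1.01 and -1.94, and none was called. Tut7, which adds uridines to RNA, was the member higher in both Aged libraries, with 3.68, 0.315 and 4.73 in Young and 25.5 and 10.7 in Aged.

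Separate lists held the genes of chromosome segregation: cohesin with its protectors, and the spindle checkpoint with the meiotic cell cycle. Cohesin genes had a median change of 1.07 over 16 genes and the spindle list one of 0.90 over 26, and without Young 1 and Aged 1 they were 0.89 and 1.64. Pttg1, the securin, had 2.12, 141 and 5165 in Young and 92.1 and 2005 in Aged. Wapl, which releases cohesin, had 2.94, 9.54 and 248 in Young and 49.7 and 64.3 in Aged, and Rad21, a cohesin subunit, had 1.06, 40.1 and 24.3 against 3.08 and 19.9. Stag3, the meiotic cohesin subunit, was the 1 gene of the list with an unadjusted p under 0.05. It had 1.17, 0 and 0.0827 in Young and 5.86 and 4.15 in Aged. Birc5 of the chromosomal passenger complex, Cks2 and the cyclin Ccnb1 led the spindle list, with 222, 86.3 and 199 in Young 2, 529, 334 and 152 in Young 3 and 624, 282 and 218 in Aged 2. In none of these 3 did Aged 2 differ from Young 2 and 3 at an adjusted p under 0.05.

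Genes of DNA methylation and chromatin silencing had a median change of 0.38 over 19 genes, under that of all genes, and it was -1.16 with quantile normalization and 0.57 without Young 1 and Aged 1. No member was called. Besides Cbx3, the maintenance methyltransferase gene Dnmt1 had 1.69, 33.0 and 202 in Young and 37.9 and 549 in Aged, and Ezh2, which methylates lysine of histone H3, had 3.21, 45.9 and 247 in Young and 53.8 and 221 in Aged. Both overlapped between the groups. Dnmt3b, a de novo methyltransferase, had 2.27, 0.530 and 3.78 in Young and was not detected in Aged (0 and 0), which did not pass the test either.

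The list of DNA damage and repair genes holds Usp10, Smchd1, Smarcad1, Tiprl and Chek2, which the original work named for these same samples, so its counts are not independent evidence. Of 31 genes tested, 10 had both Aged libraries above every Young library, against 11.0% of all genes, 6 of the 31 had an unadjusted p under 0.05, and none was called. The median change was 1.21, and it was 0.15 with quantile normalization and 1.39 without Young 1 and Aged 1. Chek2, a checkpoint kinase, had 2.19, 0 and 1.3 in Young and 11.8 and 8.73 in Aged, and Rad52, of homologous recombination, had 1.60, 0 and 4.33 in Young and 8.59 and 21.6 in Aged. The groups of both genes did not overlap, and Young 2 was at 0 in each. The most abundant members other than the deubiquitinase Usp10 were Chek1, with 0.467, 14.2 and 88.1 in Young and 9.97 and 61.2 in Aged, and the histone gene H2afx, with 3.28, 0.216 and 13.7 in Young and 5.31 and 81.5 in Aged. Both overlapped between the groups.

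Genes of protein turnover were split into 3 lists. E1 and E2 enzymes, which activate and carry ubiquitin, had a median change of 0.62 over 34 genes, the proteasome one of 0.59 over 42, and the SCF ligase with the oocyte F-box genes one of 0.78 over 22. These lay under the 0.94 of all genes, whereas without Young 1 and Aged 1 the medians were 0.87, 1.66 and 1.70 and that of all genes was 0. With all 5 libraries, no gene of the 3 lists was called or had an unadjusted p under 0.05. Without Young 1 and Aged 1, 1 was called higher, the immunoproteasome gene Psmb8, with 0 and 0 in Young 2 and 3 and 5.32 in Aged 2 (adjusted p = 0.00619), and it was at 0 in Aged 1. Skp1a, the SCF adaptor, was among the 5 most abundant protein-coding genes of Young, with 8.63, 27169 and 8353 in Young and 159 and 1861 in Aged. Fbxw28, Fbxw14 and Fbxw24, F-box genes that oocytes express, had 315, 118 and 230 in Young 2, 1394, 1354 and 1277 in Young 3 and 583, 790 and 651 in Aged 2, which lay between the Young values in all 3. Psma7, the most abundant proteasome gene, had 28.0 and 646 in Young 2 and 3 and 637 in Aged 2, and the E2 genes Ube2d3 and Ube2h had 268 and 509 against 372 and 104 and 498 against 90.3.

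Enzymes of NAD metabolism had a median change of 0.97 over 23 genes, and 0.36 without Young 1 and Aged 1, and 4 had an unadjusted p under 0.05, all higher (8.43% of all genes), with 0 called. Of these 4, Bst1, Nmnat3 and Nadk were named in the original work for these same samples, so the count is not independent evidence. Bst1, an enzyme that cleaves NAD, had 3.08, 0 and 0 in Young and 21.7 and 11.2 in Aged. Nmnat3, the NAD synthase of mitochondria, had 1.62, 0 and 0.102 in Young and 7.35 and 19.5 in Aged. Nadk, the NAD kinase, had 4.13, 0.871 and 8.57 in Young and 20.5 and 36.6 in Aged, and Cd38, another NAD-cleaving enzyme, had 0.877, 0 and 0.0260 against 1.83 and 4.72. Without Young 1 and Aged 1, 3 of 22 genes tested were called higher, against 8.07% of all genes: Bst1, Nmnat3 and Cd38, at adjusted p of 0.00223, 0.00303 and 0.0335. Sirt6, a nuclear deacylase and the most abundant of the list, pointed the other way in the oocyte-rich libraries, with 356 and 318 in Young 2 and 3 and 61.2 in Aged 2, and this change of -2.44 was not called (adjusted p = 0.212). Antioxidant enzymes had a median change of 0.98 over 25 genes with 0 called, and of 0.97 without Young 1 and Aged 1. Sod1, the cytosolic superoxide dismutase and among the 5 most abundant protein-coding genes of Aged, had 20.8, 895 and 17124 in Young and 236 and 3951 in Aged. The glutathione peroxidase gene Gpx1 had 4.03, 0 and 3.49 in Young and 16.5 and 39.0 in Aged, and the quinone reductase gene Nqo1 had 0.629, 0 and 4.20 against 9.54 and 17.8.

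Genes of mTOR signalling and autophagy had a median change of 0.94 over 14 genes, and of 0.79 without Young 1 and Aged 1. Rptor, the scaffold of mTOR complex 1, had 4.66, 0 and 0.0499 in Young and 11.4 and 12.7 in Aged. Atg7, an enzyme of autophagosome formation, had 2.04, 0 and 3.83 in Young and 31.7 and 4.99 in Aged, and Atg5, the most abundant of the list, had 0.246, 34.3 and 171 against 9.38 and 91.2. The BCL2 family and other apoptosis genes had a median change of 0.58 over 17 genes, of -0.01 with quantile normalization and of 0 without Young 1 and Aged 1. Bcl2l10, the member that oocytes express most, had 0.458, 39.5 and 740 in Young and 16.1 and 1252 in Aged, and Bcl2l1 and Cycs had 15.7 and 38.5 in Young 3 and 16.7 and 58.6 in Aged 2. Of 18 genes of senescence and inflammation, 11 passed the filter on low values, with a median change of 0.95, and of -0.23 without Young 1 and Aged 1, and 1 had an unadjusted p under 0.05, Mmp12, a macrophage metalloprotease. The cell cycle inhibitor Cdkn1b had 3.45, 138 and 17.0 in Young and 4.03 and 11.2 in Aged, Cdkn1a had 38.7 in Aged 1 and at most 1.82 elsewhere, and Cdkn2a was at 6.88 in Young 1 and at 0 in the other 4 libraries. Il6, Tnf and Il1b were under 1 in each library.

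Collagens and laminins form the extracellular matrix, and integrins are its receptors. Of 69 collagen, laminin and integrin genes and Utrn tested, 22 were higher in both Aged libraries, against 11.0% of all genes, 15 had an unadjusted p under 0.05, and 0 were called. Their median change was 1.17, and it was 0.19 with quantile normalization and 0.71 without Young 1 and Aged 1. Lamb1, a laminin chain and the most abundant of them, overlapped between the groups, with 1.27, 56.5 and 73.3 in Young and 9.20 and 77.9 in Aged. Itga6, a laminin receptor, had 9.44, 1.14 and 9.94 in Young and 29.5 and 26.5 in Aged. Col26a1, a collagen, had 2.60, 0 and 0 in Young and 17.9 and 8.69 in Aged, and Itga7 had 1.47, 0 and 0.272 against 15.1 and 6.72. Without Young 1 and Aged 1, 11 of 60 members tested were called higher, against 8.07% of all genes, among them Col26a1, Itga7 and Utrn. Of the stromal marker collagens that the list also holds, Col1a1 was at 14.9 in Aged 1 and at 0 in Aged 2, and the part of stromal cells in these values was not tested.

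Another list was chosen on these very samples in the original work, so it is not independent evidence of its direction. Its median change was 2.84, and it was 1.64 with quantile normalization and 3.18 without Young 1 and Aged 1. In all 12 of its genes both Aged libraries lay above every Young library, 11 had an unadjusted p under 0.05, and none was called. Utrn, which encodes utrophin, a link between the cytoskeleton and the matrix, had 1.26, 0.342 and 1.10 in Young and 29.0 and 13.4 in Aged, a change of 3.49 ± 0.65 (SE). Usp10 had 3.71, 1.99 and 15.6 in Young and 46.7 and 35.2 in Aged, and Usp21, also a deubiquitinase, had 2.29, 0 and 5.64 against 19.3 and 47.4. The ubiquitin ligases Bfar, Trim2 and Rnf41 had 2.69, 0 and 6.67, 5.71, 0 and 0.0701, and 2.25, 0 and 0.636 in Young, and 40.8 and 16.9, 24.1 and 10.2, and 11.7 and 11.2 in Aged. Smchd1, of X inactivation and gene silencing, had 8.34, 0.125 and 4.82 in Young and 28.3 and 20.8 in Aged. Smarcad1, a chromatin remodeller of DNA end resection, had 2.71, 0.226 and 4.48 against 15 and 10.5, and Tiprl, a regulator of phosphatase 2A, had 2.72, 0.435 and 4.71 against 16.4 and 12.1. Lama5, a laminin chain, had 2.94, 0 and 3.67 in Young and 9.55 and 20.4 in Aged. Without Young 1 and Aged 1, 5 of the 12 were called higher, against 8.07% of all genes, with Nmnat3, Rptor, Trim2, Utrn and Rnf41 at adjusted p of 0.00303 to 0.0495.

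Markers of other ovarian and blood cells were also measured. The summed FPKM of 10 granulosa and cumulus cell markers was 33.6, 76.6 and 29.9 in Young and 30.3 and 17.6 in Aged, with Fshr, the receptor of follicle-stimulating hormone, under 3 in each library and at 0 in 3 of 5. Inha, the most abundant of them, had 6.02, 21.2 and 16.6 in Young and 10.5 and 11.7 in Aged. Sums over 6 luteal, 6 stromal and 4 endothelial markers were highest in Aged 1, at 56.3, 32.6 and 26.1, against 6.49, 0.974 and 2.2 in Aged 2 and at most 5.76, 4.02 and 8.34 in Young. Of these markers, luteal Star and Ptgfr and endothelial Cdh5 were higher in Aged at an unadjusted p under 0.05, against 8.43% of all genes. They also had no overlap between the groups, against 11.0% of all genes. None was called. Other members of both lists did not share this, as 4 of the 6 luteal and 2 of the 4 endothelial markers were at 0 in Aged 2. Endothelial Pecam1 had 5.88 in Young 3 and 0.546 in Aged 2. Star, which brings cholesterol into mitochondria, had at most 0.660 in Young and 8.38 and 4.82 in Aged, Ptgfr, a prostaglandin receptor, at most 0.0824 against 5.20 and 1.67, and Cdh5, the endothelial cadherin, at most 1.10 against 6.38 and 1.65. Immune markers summed to 54.8 and 41.9 in Aged and to at most 9.36 in Young. Ptprc, the common leukocyte antigen CD45, was at 11.7 and 6.15 in Aged and at most 0.986 in Young. Cd3e of T cells was at 35.8 in Aged 2 and at most 0.806 elsewhere, and 5 of the 7 immune markers were at 0 in Aged 2. Red blood cell markers summed to 28.2 in Aged 2 and at most 2.38 elsewhere, from Hba-a1 and Hba-a2 at 14.0 and 14.2 with both beta globin genes at 0. Their part in the differences between the groups was not tested.

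Odorant and vomeronasal receptors, which neither oocytes nor ovarian cells are known for, were counted as a measure of scattered low signal. Of 1422 such genes, 111, 18 and 16 had an FPKM of at least 1 in Young 1, 2 and 3, and 934 and 215 in Aged 1 and 2. Among the 437 that passed the filter, 107 were higher in both Aged libraries and 1 was lower, against 11.0% and 0.646% of all genes. Their median change was 1.43, over that of all genes, with 104 at an unadjusted p under 0.05 and 0 called. It was 0.48 with quantile normalization and 1.02 without Young 1 and Aged 1. A receptor could pass the filter, a mean over all 12 oocyte libraries, through high values in the Aged libraries themselves. The share without overlap and the median change are therefore not independent of the filter. The relation of these values to the lower depth of both Aged libraries was not tested.

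**Figure D5:**
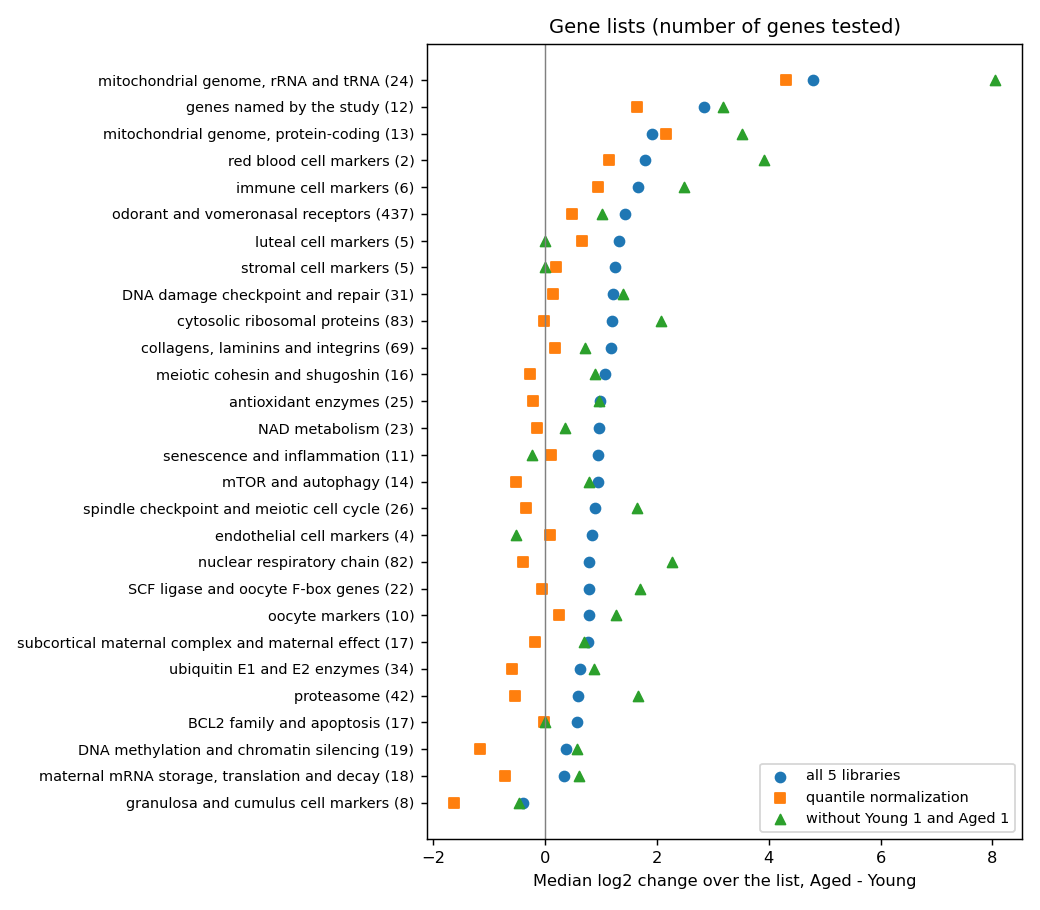
Median log2 change, Aged minus Young, of each gene list in all 5 libraries (circles), with quantile normalization (squares) and without Young 1 and Aged 1 (triangles). The number of genes tested is in brackets. Mitochondrial rRNAs and tRNAs are farthest to the right under all 3 settings (4.80, 4.31 and 8.05), and many other lists move to the other side of 0 with quantile normalization.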

How the data were processed

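RNA of oocytes was sequenced in 12 libraries, of which 5 came from untreated mice. Per the labels and the study's methods, the authors aligned reads with HISAT2 2.2.1 and made gene abundances per library with StringTie 1.3.3b. The deposited files give FPKM, TPM and coverage for each gene, the authors' estimates scaled by length and library (FPKM, TPM) and the mean read depth (coverage). Labels and methods name different library kits, and the submitters' notes name mm9, whereas 54577 of 55335 identifiers matched the version and coordinates of a GRCm38 annotation (GENCODE vM21). FPKM of repeated identifiers, 4 to 21 per library, were summed.

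Genes were kept where FPKM averaged 1 or more across all 12 oocyte libraries (28004 genes), and were tested with limma 3.58.1 in R 4.3.3 (lmFit and eBayes on log2(FPKM + 1), 5 groups, two-sided), as Aged minus Young. A gene was called at a fold over 1.5 and a Benjamini-Hochberg adjusted p under 0.05. A fold on this scale understates the change of low genes. The script was tested on simulated data. Tables were handled with pandas 2.3.3 in Python 3.11.15. Depth was estimated from 21772 genes with 1 single-exon transcript, by dividing coverage by FPKM and taking the median, since read counts were not used here, so no counting interval is given.

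Groups came from the labels. Named genes were all called genes, the 10 protein-coding genes per direction with the smallest p, a mean FPKM of at least 10 and no overlap between groups, the 3 most abundant members of each list, the genes the study names for oocytes and the 5 most abundant protein-coding genes of each group. Some items under this rule are not reported here. Other members of lists that are named were chosen after their values were seen. The members and lists were chosen with earlier results of these data known. Alternatives were other pseudocounts, filters, scalings, units, limma settings and sets of libraries, and leaving out Young 1 and Aged 1 was added after seeing the data.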

Additional observations from a re-analysis of the deposited data

How the results depend on the processing

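The number of genes called depended on the processing, and the cause was not tested. Against 27 higher and 0 lower genes, 0 were higher with a pseudocount of 0.1, with median ratio scaling and with the replicate block, 1 with a mean FPKM of at least 10 and with only the Young and Aged libraries in the fit, 6 with quantile normalization and 12 with trended and robust limma settings, with 0 lower in each of these. Without a filter on low values 860 were higher and 3 lower, and with TPM 874 were higher and 2 lower. At an unadjusted p under 0.05 limma gave 2361 higher and 60 lower genes. Leaving out one library gave 0 to 9528 higher and 0 to 40 lower genes. The counts were 758 and 40 without Young 1, 0 and 0 without Young 2, 0 and 0 without Young 3, 874 and 1 without Aged 1, and 9528 and 19 without Aged 2. Among settings chosen after seeing the data, leaving out Young 1 and Aged 1 gave 1805 and 31 genes, and 340 and 12 with quantile normalization on top. At an unadjusted p, quantile normalization gave 1262 and 426 genes, and a mean FPKM of at least 10 gave 53 and 21. None of 57 named genes changed direction under any of these settings that gave a value. These are the genes called, those ranked without overlap and those the study names. A value was given for 15 of them with a mean FPKM of at least 10, for 56 without Aged 2 and for 57 in each other setting. In all 57 the groups did not overlap. Leaving out libraries or changing the pseudocount, filter or thresholds could therefore not change their direction. Only the other scalings, TPM and the replicate block could have done so. Of the other 105 named genes tested, 13 changed sign with quantile normalization, 32 without Aged 2, 28 without Young 1 and 10 without Young 1 and Aged 1, and 0 of these had an unadjusted p under 0.05 in the limma comparison of all libraries or were called with the other sign. With quantile normalization 14 of 28 list medians changed sign.

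Whether replicate numbers pair the libraries could not be decided. Deviations from the group means correlated across genes at 0.44 between Young 1 and Aged 1, at -0.11 between Young 2 and Aged 2 and at 0.52 between Young 3 and Aged 2. With only 2 Aged libraries, the deviations of Aged 1 and Aged 2 are exact opposites. Each Young library must then correlate above 0 with Aged 1 or with Aged 2, whatever the numbers stand for. Why the block gave 0 higher and 0 lower genes was not tested. With 2 and 3 libraries, and shallower Aged libraries, an FPKM of 0 does not show that a gene is absent.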
